A study of Mus musculus with 2 samples.

Results

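The 10 keratins followed here, Krt5, Krt14, Krt15, Krt76, Krt24, Krt10, Krt13, Krt4, Krt1 and Krt2, were taken by gene symbol from the 32285 genes counted in 2 single-cell libraries of mouse palatal gingiva, which hold 53 keratin genes in all. Each library combined equal numbers of cells from 4 female wild-type C57Bl6/J mice aged 8 to 12 weeks. In 1 group the palate received 3 µl of CpG ODN, a TLR9 ligand, and in the other 3 µl of LPS of P. gingivalis, a TLR2/4 ligand, each at 1 µg/ml under an oral appliance for 1 h. The gingiva was harvested on Day 4, and cells released by collagenase II and then by trypsin were run together. Both groups carried an appliance and a ligand, and no untreated library was analysed here. The mice of a library cannot be separated, so each ligand has 1 library. No difference between the ligands was tested, and ligand and library cannot be told apart.

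Keratins are the intermediate filament proteins of epithelia. A filament needs a type I and a type II keratin in partnership, so an epithelial cell makes both types. In stratified epithelia the pair changes as a cell leaves the basal layer: Krt5 (type II) with Krt14 (type I), and in many sites the type I Krt15, are the keratins of basal cells, Krt1 or Krt2 (type II) with Krt10 (type I) those of cornifying layers, and Krt4 (type II) with Krt13 (type I) those of soft, non-cornifying mucosa. Krt76 (type II) is known from the suprabasal layers of gingiva and hard palate, and Krt24 is a type I keratin of differentiating keratinocytes.

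The threshold of 800 genes per barcode left 4888 CpG ODN cells (median depth 11078 UMIs, or unique molecular identifiers, each standing for 1 captured transcript) and 1277 LPS cells (median depth 22680). Keratinocyte-like by non-keratin markers such as Perp, Sfn and Dsp were 3666 (75%) and 956 (74.9%) of them, with medians of 13198 and 27194 UMIs. The libraries shared 5 barcodes, 1 of them among the kept cells. A doublet caller marked 17 of 4888 (0.348%) and 3 of 1277 (0.235%) cells, too few to count as a working call, so doublets were kept. Keratin genes took no part in the clustering. The 10 members held 5.85% of the UMIs of these cells after CpG ODN and 6.13% after LPS. The library captures the 3′ ends of transcripts, so 1 UMI stands for 1 molecule whatever the gene's length, and levels are given as CPM (UMIs per 1000000 UMIs of the same cells) with no scaling by length. How reads shared by near-identical keratins were counted is not given in the sources used here, which limits comparisons of levels between keratins, the type I over type II ratio included. All intervals are 95% and cover counting error only, not the difference between mice.

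The members lie in both keratin gene clusters of the mouse genome (GENCODE M21 annotation, GRCm38). The 5 type II members, Krt5, Krt2, Krt1, Krt76 and Krt4 in that order, span 217666 bp of chromosome 15, and the 5 type I members, Krt24, Krt10, Krt13, Krt15 and Krt14, span 927590 bp of chromosome 11. All 10 are on the minus strand. Krt76 (chr15:101884351-101892920) and Krt4 (chr15:101918535-101924735) are direct neighbours 25614 bp apart, as are Krt13 (chr11:100117327-100121566) and Krt15 (chr11:100131758-100135928), 10191 bp apart. Krt5 is at chr15:101707070-101712898, Krt14 at chr11:100203162-100207548, Krt24 at chr11:99279959-99285262, Krt10 at chr11:99385254-99389364, Krt1 at chr15:101845426-101850794 and Krt2 at chr15:101810689-101818169. The annotation places an antisense gene, Gm11940, over Krt10, and microRNA genes over Krt5 (Gm44323) and Krt76 (Gm44356), each on the opposite strand.

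The promoters of Krt76, Krt24 and Krt10, 3 members often carried by the same cells, and that of Krt13, the keratin with the highest level in bin 6 of the LPS library, are shown as the 250 bases before the start of transcription (RefSeq, GRCm38.p6), with 3 motifs searched on them in capitals where they occur: TATAAA on the gene's strand, and TGANTCA and GCCNNNGGC on both strands, which do not overlap each other here.
Krt76 promoter, chr15:101892921-101893170, minus strand: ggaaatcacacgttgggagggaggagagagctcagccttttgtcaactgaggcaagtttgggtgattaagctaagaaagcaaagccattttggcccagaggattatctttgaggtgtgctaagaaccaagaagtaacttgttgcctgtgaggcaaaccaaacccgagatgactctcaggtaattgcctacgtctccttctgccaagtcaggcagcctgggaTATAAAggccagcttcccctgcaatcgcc
Krt24 promoter, chr11:99285263-99285512, minus strand: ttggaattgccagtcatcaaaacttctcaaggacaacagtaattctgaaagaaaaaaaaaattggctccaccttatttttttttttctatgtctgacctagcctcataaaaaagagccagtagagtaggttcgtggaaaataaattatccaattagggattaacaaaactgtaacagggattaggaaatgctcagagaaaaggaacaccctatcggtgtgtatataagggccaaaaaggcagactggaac
Krt10 promoter, chr11:99389365-99389614, minus strand: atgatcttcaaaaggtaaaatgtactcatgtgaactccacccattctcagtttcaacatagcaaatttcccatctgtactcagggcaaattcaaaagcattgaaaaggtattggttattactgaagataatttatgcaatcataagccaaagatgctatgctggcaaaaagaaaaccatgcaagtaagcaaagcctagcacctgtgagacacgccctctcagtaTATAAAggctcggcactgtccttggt
Krt13 promoter, chr11:100121567-100121816, minus strand: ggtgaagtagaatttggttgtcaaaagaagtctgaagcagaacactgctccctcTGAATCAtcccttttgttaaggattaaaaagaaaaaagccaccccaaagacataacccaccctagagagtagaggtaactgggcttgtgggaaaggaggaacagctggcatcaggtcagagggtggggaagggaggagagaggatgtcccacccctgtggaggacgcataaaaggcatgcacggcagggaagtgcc
TATAAA occurs in Krt76 at base -29 and in Krt10 at base -26 from the start, on the gene's strand in each. On either strand it occurs in 2 of the 7 members with an entry, against 12.4% of 32851 mouse promoters. TGANTCA occurs in 1 of 7, Krt13, at base -196 of the promoter shown (6.75% of all promoters). GCCNNNGGC occurs in none of the 7 (13.7% of all promoters). The Krt14 entry (not shown) and the second Krt13 entry lie inside the annotated genes and not before their starts. The second Krt13 entry holds TGANTCA at bases -183 and -34. Krt15, Krt4 and Krt1 were not searched.

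To order the keratins without using keratins, each keratinocyte-like cell was thinned to 3000 UMIs and scored by 18 genes of the upper layers minus 12 genes of the basal layer. Cells of both libraries were cut at the same scores into 6 bins, from 1 (basal) to 6 (upper), with 552 to 661 cells a bin after CpG ODN and 143 to 172 after LPS. The median depth was higher in the upper bins: 9176 UMIs in bin 1 and 32207 in bin 6 after CpG ODN, and 17609 and 59599 after LPS. The position of a keratin is the mean of the bin centres weighted by its CPM, from 0 (basal end) to 100 (upper end).

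The order was shared by the libraries. Krt5 came first at position 30.9 in the CpG ODN library and 31.02 in the LPS library, then Krt15 (34.8 and 35.4) and Krt14 (48.3 and 47.2). The 6 others with enough UMIs lay in the upper part: Krt24 (75.3 and 75.3), Krt76 (76.6 and 76.3), Krt13 (79.6 and 79.8), Krt1 (82.5 and 82.5), Krt4 (84.0 and 85.5) and Krt10 (85.9 and 85.3). For none of these 9 did the libraries differ by more than 1.46 points. Gaps below that, between Krt24 and Krt76 (1.09 points) and between Krt4 and Krt10 (0.807 points), give no order, and Krt10 was last after CpG ODN and Krt4 after LPS. With the basal list alone as the axis, Krt13 (77.8 and 78.9) came above Krt1 (77.3 and 77.5) in both libraries, and above Krt10 (78.1) after LPS. Comparing bin 6 with bin 1, 6 of 9 members were at least 2-fold higher at the top in each library, where 10.2% (CpG ODN) and 11.1% (LPS) of all genes were. Another 2 of 9, Krt5 and Krt15, were at least 2-fold higher at the bottom, where 37.5% and 36.5% of all genes were.

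**Figure D1:**
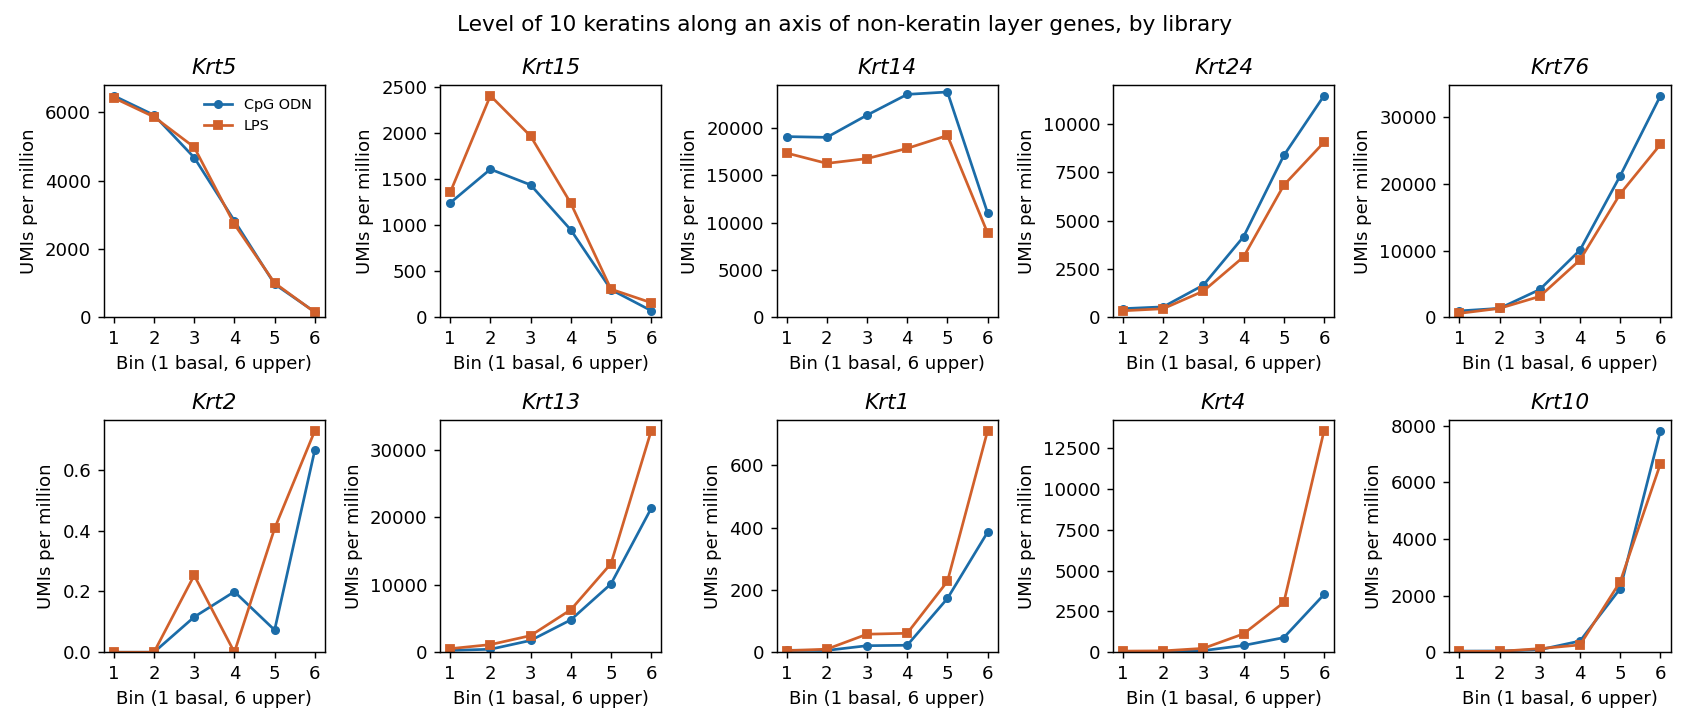
Level of each keratin (CPM, linear axes from 0, 1 scale per panel) in 6 bins of the layer axis, from 1 (basal) to 6 (upper), with circles for the CpG ODN library and squares for the LPS library. Krt5 is lower in each further bin, Krt15 peaks in bin 2, Krt14 in bin 5, and 7 panels have their highest level in bin 6, of which Krt2 rests on 28 UMIs.

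Krt5 had the steepest basal gradient of the 10. It was at 6475 CPM in bin 1 after CpG ODN and 6415 after LPS, at 2825 and 2723 in bin 4, and at 163 and 152 in bin 6, 39.8-fold and 42.2-fold lower than in bin 1. The curves of both libraries lie on each other. Krt15 was lower than Krt5 in all bins but bin 6 of the LPS library, where it was at 160 against 152 CPM. It peaked 1 bin above the base, at 1606 and 2403 CPM in bin 2. Its level was 1241 and 1354 CPM in bin 1 and 73.8 and 160 in bin 6.

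Krt14, the type I partner of Krt5, did not follow it. Its level was 19086 CPM in bin 1, 23792 in bin 5 and 11019 in bin 6 after CpG ODN, and 17351, 19203 and 8906 after LPS. It was thus highest in bin 5, where Krt5 was at 974 and 1008 CPM, and the step from its highest to its lowest bin was 2.16-fold in both libraries. Krt14 was the member with the most UMIs in 74.5% (CpG ODN) and 64.5% (LPS) of the keratinocyte-like cells, against 0.736% and 1.26% for Krt5. In bin 5 it still led in 61.2% and 44.8% of cells, and in bin 6 in 9.60% and 8.72%, where Krt76 led in 63.2% and 51.7% and Krt13 in 21.6% and 35.5%.

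In bin 6, Krt76 had the highest level of the members after CpG ODN and Krt13 after LPS. In bin 5 of the LPS library Krt76 was above Krt13 (18514 against 13162 CPM), and in its cells without Krt4 over all bins as well (16464 against 7341 CPM). Krt76 was at 981 and 617 CPM in bin 1 and at 33175 and 25909 CPM in bin 6 (CpG ODN and LPS), a 33.8-fold and 42.0-fold difference. Krt24 went from 456 and 347 to 11455 and 9050 CPM (25.1-fold and 26.1-fold). A cell is said to carry a keratin at 10 or more UMIs per 10000. Krt76 was already carried by 34.0% and 16.5% of cells in bin 1 and by 68.2% and 53.1% in bin 3.

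Krt10, the type I keratin of cornifying layers, came late and steeply. It was at 39.0 and 33.1 CPM in bin 1, 397 and 259 in bin 4, 2248 and 2494 in bin 5 and 7822 and 6657 in bin 6, a 200-fold and a 201-fold difference between the ends. No cell of bins 1 and 2 carried it in either library, and 83.3% and 71.5% of bin 6 did. Its usual type II partners were scarce. Krt1 reached 385 and 711 CPM in bin 6, and Krt2 amounted to 16 UMIs (12 cells, CpG ODN) and 12 UMIs (5 cells, LPS), with 0 of 3666 and 0 of 956 cells carrying it (upper limits of 0.101% and 0.385% by the exact binomial interval).

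The keratins of soft mucosa were also highest at the top. Krt13 was at 274 and 529 CPM in bin 1 and 21361 and 32883 in bin 6 (78.0-fold and 62.2-fold). Krt4 was at 28.2 and 69.2 CPM in bin 1 and 3534 and 13557 in bin 6 (125-fold and 196-fold). Unlike Krt13, Krt4 came from few cells: those carrying it, 148 cells in the CpG ODN library (4.04%, interval 3.42 to 4.73%) and 108 in the LPS library (11.3%, 9.36 to 13.5%), held 98.4% and 99.2% of its UMIs. Of all cells, 67 and 36 lay within 2-fold of the carrying threshold for Krt4, on either side.

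The share of cells carrying each of the other keratins was 72.3% after CpG ODN and 67.8% after LPS for Krt5, 93.7% and 86.9% for Krt14, and 26.6% and 31.5% for Krt15. For the upper keratins it was 69.1% and 56.6% for Krt76, 56.1% and 48.2% for Krt24, 20.9% and 22.6% for Krt10, 43.5% and 52.4% for Krt13, and 2.13% and 3.87% for Krt1. Thinned to 3000 UMIs a cell, the shares of Krt24 moved most, to 60.1% and 51.3%. Those of Krt15 became 28.8% and 34.2%, those of Krt76 71.2% and 58.6% and those of Krt4 4.31% and 11.6%. As a background of free RNA, B-like and T-like cells, which should make no keratin, carried each member in 0 to 4.59% of 370 cells (CpG ODN, median 2272 UMIs) and 0 to 1.04% of 96 cells (LPS, median 3567 UMIs), highest for Krt14 in the CpG ODN library, and in 0 cells for Krt4 and Krt1. Per cell class, Krt14 stood at 182 and 92.9 CPM in B-like cells but at 8856 and 6724 CPM in T-like cells, where 9 of 87 and 1 of 27 cells carried it.

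Within single cells, Krt76, Krt24 and Krt10 were nested. Of cells carrying Krt10, 94.4% (722 of 765, CpG ODN) and 93.5% (202 of 216, LPS) also carried Krt76, and 97.4% and 96.3% carried Krt24. The reverse did not hold, since 28.5% and 37.3% of Krt76 cells carried Krt10. Upper cells without Krt10 often carried Krt76 or Krt24 too. In bins 5 and 6, Krt76 was in 84.9% and 57.8% of cells without Krt10, against 94.9% and 93.1% of those with it. Krt24 was in 86.8% and 58.5%, against 97.3% and 96.0%. Of Krt24 cells, 91.2% and 90.7% carried Krt76, and 74.1% and 77.3% of Krt76 cells carried Krt24. Over thinned cells the Pearson correlation of Krt76 with Krt24 on the log scale was 0.75 after CpG ODN and 0.82 after LPS, the highest of the 45 pairs of members in each library (a description, since cells of 1 library share it). In bins 3 and 4, cells that carried Krt10 had more Krt76 than those that did not (14187 against 6995 CPM after CpG ODN, 19139 against 5313 after LPS, from 54 and 11 cells that carried it). Most of these cells were in bin 4, where Krt76 was also higher than in bin 3, and the comparison was not made within a bin.

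Other pairs hardly met. Krt15 and Krt10 were carried together by 28 cells after CpG ODN and 8 after LPS, 2.87% and 2.66% of Krt15 cells and 3.66% and 3.70% of Krt10 cells. Krt5 was carried by 17.0% (130 of 765) and 14.4% (31 of 216) of Krt10 cells, against 72.3% and 67.8% of all keratinocyte-like cells, and the correlation of Krt5 with Krt10 was -0.70 and -0.63. Of Krt5 cells, 98.6% and 95.8% carried Krt14, where 93.7% and 86.9% of all keratinocyte-like cells did, and 76.1% and 74.7% of Krt14 cells carried Krt5. In the same order, 94.9% and 93.0% of Krt15 cells carried Krt5. Krt14 in turn was carried by 650 of 765 and 186 of 216 Krt10 cells.

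**Figure D2:**
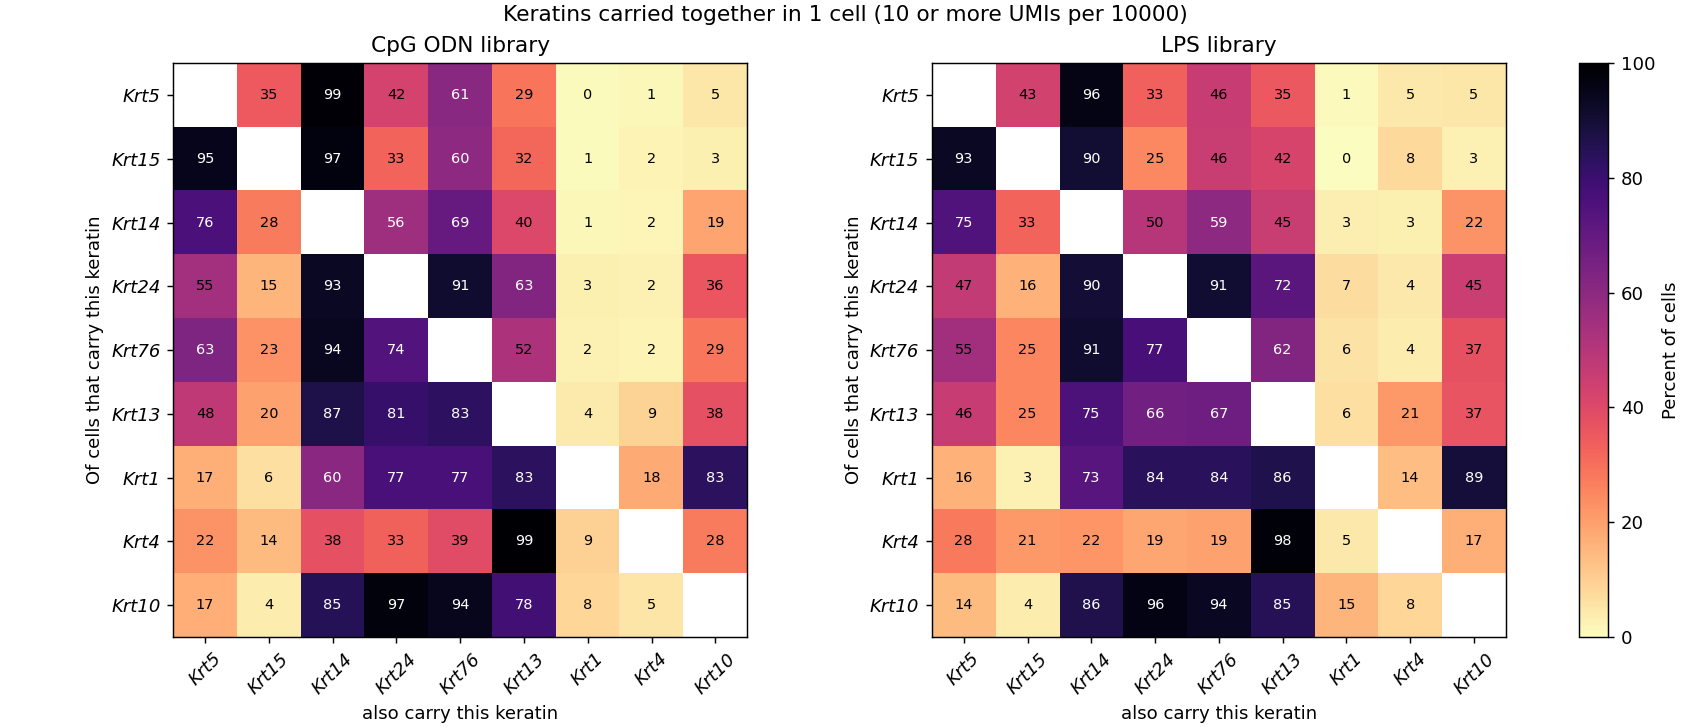
Percent of the cells carrying the keratin of the row that also carry the keratin of the column, in the CpG ODN library (left) and the LPS library (right), with members ordered by layer position and Krt2 left out, as no cell carried it. Rows for Krt10 show 94.4% and 93.5% under Krt76, and rows for Krt4 show 98.1% or more under Krt13 and 39.2% or less under Krt14 and Krt76.

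The cells of the basal bins were also grouped by whether they carried Krt15. This is no clean division, since 759 and 187 of all keratinocyte-like cells lay within 2-fold of its carrying threshold, on either side. In bins 1 and 2 Krt15 was carried by 42.3% of cells after CpG ODN (509 cells) and 50.6% after LPS (161 cells). These had less Krt14 than the cells without it, 16944 against 20583 CPM after CpG ODN and 14988 against 18779 after LPS, and close to the same Krt5, 5964 against 6306 and 5965 against 6341. Krt13 was higher in them, 520 against 255 and 1018 against 608 CPM. Cells with 3 or more of 5 division markers (106 and 34 cells of bins 1 and 2) had less Krt5 than the others, 4950 against 6334 and 5002 against 6332 CPM. For Krt15 the libraries differed there, with 1437 against 1445 CPM after CpG ODN and 1200 against 1964 after LPS.

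Krt4 cells had Krt13 in common but were mixed in their other keratins, and 27.7% (CpG ODN) and 16.7% (LPS) of them carried Krt10. They almost always carried Krt13, in 147 of 148 cells (99.3%, CpG ODN) and 106 of 108 cells (98.1%, LPS), while 9.22% and 21.2% of Krt13 cells carried Krt4. Krt14 was carried at 10 UMIs per 10000 by a smaller share of them than of all keratinocyte-like cells, 37.8% (interval 30.0 to 46.2%) and 22.2% (14.8 to 31.2%) against 93.7% and 86.9%. This share follows the threshold, which was set on Krt4 and Krt14 alike, so each threshold takes another set of Krt4 cells. It was 61.7% and 46.1% at 3 UMIs per 10000, and 16.5% and 6.10% at 30. At 1 UMI it was 98.5% and 99.4%, of the 590 and 482 cells with a Krt4 UMI. Above the 99th percentile of B-like and T-like cells it was 8.38% and 27.5%. For Krt14 that percentile was 140 UMIs per 10000 in the CpG ODN library and 22.8 in the LPS library. These shares are thus taken at unlike thresholds and give no order of the libraries. At 10 UMIs per 10000, Krt76 was carried by 39.2% (31.3 to 47.5%) and 19.4% (12.5 to 28.2%) of the Krt4 cells. Without cells above 2 times the median UMIs, where 2 cells in 1 droplet would be looked for first, the share with Krt76 was 29.9% and 10.3%. With 1 UMI of each gene enough to count as carrying, at which free RNA enters, it was 89.7% and 93.2% of the 590 and 482 cells.

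Krt4 cells also differed from Krt76 cells within the upper bins. In bins 5 and 6 together, cells with Krt4 and no Krt76 (57 after CpG ODN, 56 after LPS) had 44586 and 51568 CPM of Krt13, 29648 and 35707 of Krt4, 2488 and 1933 of Krt14 and 1276 and 528 of Krt10. Cells of these bins with Krt76 and no Krt4 (975 and 246) had 12923 and 13405 CPM of Krt13, 18256 and 17864 of Krt14, 11242 and 11339 of Krt24 and 5862 and 6529 of Krt10. The former thus had more Krt13 and less Krt14 than the latter in each library. The bins are not equally filled by these groups, and Krt13 and Krt14 differ between them. Within bin 5 alone, Krt13 was at 29149 CPM in the former and 8803 in the latter after CpG ODN (18 and 528 cells), and at 29057 and 8964 after LPS (22 and 131 cells). Within bin 6 alone, it was at 49638 and 16417 CPM (39 and 447 cells), and at 60934 and 17184 (34 and 115 cells). Krt14 was lower in the former in both bins, at 2465 against 25219 and 2060 against 23845 CPM in bin 5, and at 2496 against 12350 and 1881 against 12775 in bin 6. Cells with both (54 and 20) lay at 41805 and 52749 CPM of Krt13 and 5938 and 3304 of Krt14, nearer to the cells with Krt4 alone on both genes. A small set of cells of these bins carried neither (43 and 15), with 19148 and 15807 CPM of Krt14, 6183 and 7709 of Krt10, and 1588 and 4811 of Krt1. Their Krt1 rests on few cells. It was at 22.4 and 2.95 CPM in bin 5 (20 and 8 cells) and at 2750 and 8893 in bin 6 (23 and 7 cells). Over all keratinocyte-like cells of the LPS library, 2 cells held 38.2% of the Krt1 UMIs.

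**Figure D3:**
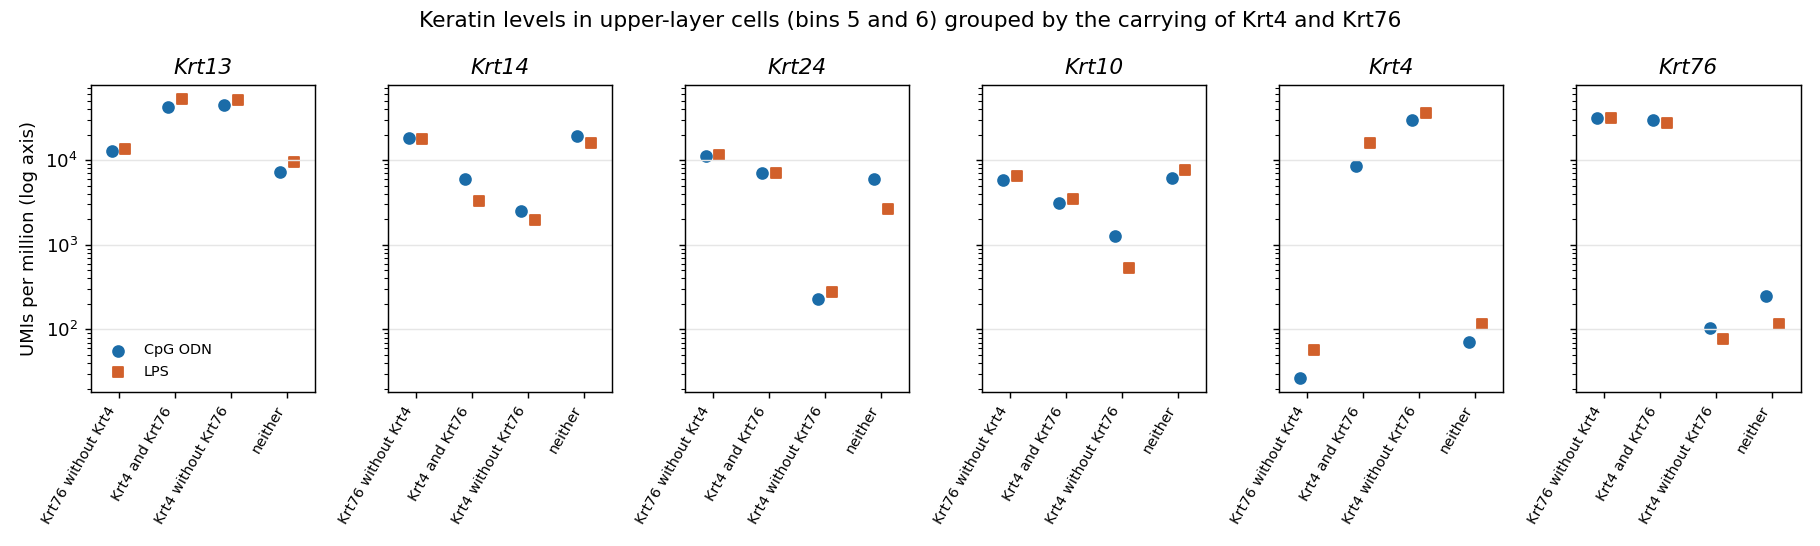
Levels of 6 keratins (CPM, log axis) in cells of bins 5 and 6 grouped by whether they carried Krt76 and Krt4, with circles for the CpG ODN library and squares for the LPS library. The groups were made with Krt4 and Krt76, so the 2 right panels show the grouping itself. Krt13 stands at 41805 CPM or more in both groups with Krt4 and at 13405 or less in the others, and Krt14 in the reverse order.

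The cells without Krt14 were rich in this pair. Cells on the axis that did not carry Krt14, 224 (6.19%) after CpG ODN and 125 (13.1%) after LPS, had 34571 and 43920 CPM of Krt13 and 10882 and 23248 of Krt4, against 6642 and 7000 of Krt13 and 231 and 324 of Krt4 in the cells with Krt14. Of them, 40.6% and 67.2% carried Krt4, 66.1% and 37.6% Krt76, and 50.9% and 24% Krt10. Their Krt76 was higher than in the cells with Krt14 after CpG ODN (21775 against 16026.5 CPM). After LPS it was lower (11147 against 15327 CPM). Over thinned cells Krt14 and Krt4 had correlations of -0.52 and -0.69, and Krt13 and Krt4 one of 0.36 and 0.51. Of 14 keratinocyte-like clusters, built without keratins, 2 held most Krt4: cluster 18, with 55.3% and 34.6% of all Krt4 UMIs of these cells, in which 82.1% and 82.6% of cells carried it, and cluster 16, with 26.7% and 54.5%. Among the leading genes of cluster 16 were Lor, Cnfn and Sprr3, proteins of the cornified envelope. Krt4 was carried by 26 of the 86 CpG ODN cells of cluster 16 (30.2%) and by 23 of its 32 LPS cells (71.9%). Over all their cells, these clusters differed in other keratins. Krt76 was at 2305 and 968 CPM in cluster 18 and at 36102 and 16176 in cluster 16. Krt10 was at 1535 and 1757 CPM in cluster 18 and at 10833 and 5885 in cluster 16.

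Between the ligands, 1 of 9 members with at least 100 UMIs was past 2-fold, and 1.59% of the 11281 genes tested were. The member was Krt4, on the side of LPS, on which 1.35% of all genes were past 2-fold, and 0 of 9 were past it on the side of CpG ODN, where 0.239% of all genes were. The median log2 ratio (CpG ODN over LPS) was 0.01 for the members and -0.01 for all genes. Krt4 was at 1296 CPM (1287 to 1305) after CpG ODN and 5347 (5322 to 5372) after LPS, 4.12-fold higher after LPS (4.09 to 4.16). It was higher after LPS in each of the 6 bins, from 2.38-fold in bin 3 to 3.84-fold in bin 6. The bins match the libraries on the layer score and not on each gene of it. In bin 6, Lor was at 780 CPM after CpG ODN and 4637 after LPS, and Spink5 at 1534 and 1287. In the cells that carried Krt4 its level was 17394 and 26530 CPM, and in those that did not 22.1 and 52.5 CPM, where B-like cells had 11.9 and 21.1. Cluster 18 held 1.53% (CpG ODN) and 4.81% (LPS) of the keratinocyte-like cells, and within it Krt4 was at 23776 and 22165 CPM. In cluster 16 it was at 7134 and 36311 CPM. Krt4 was higher after CpG ODN in cluster 0 (185 against 24.98 CPM), cluster 10 (757 against 236), cluster 13 (52.7 against 32.9) and cluster 15 (221 against 146) as well, and higher after LPS in the other 9 of the 14 clusters.

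Krt13 was at 9431 CPM (9407 to 9455) after CpG ODN and 15092 (15050 to 15134) after LPS, 1.60-fold higher after LPS (1.59 to 1.61) and higher in each of the 6 bins. The difference was not spread evenly over cells and layers. Cells that carried Krt4 held 61.1% of all Krt13 UMIs after LPS and 30.7% after CpG ODN. Among the cells that did not, Krt13 was at 7051 CPM after CpG ODN and 7344 after LPS, 1.04-fold higher (1.04 to 1.05), and among those that did at 39465 and 46093, 1.17-fold higher (1.16 to 1.17). In cells without Krt4 the libraries were apart in the basal bins, where Krt13 was at 320 CPM after CpG ODN and 740 after LPS in bins 1 and 2. It was at 2964 and 2976 CPM in such cells of bins 3 and 4, and at 12706 and 13182 in those of bins 5 and 6. The division by Krt4 was made after the Krt13 values had been seen. The LPS library, with the larger share of Krt4 cells, was also the deeper one, and at 3000 UMIs a cell the shares of Krt4 cells were 4.31% and 11.6%.

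Krt1 was at 156 CPM (153 to 159) and 302 (296 to 308), 1.93-fold higher after LPS (1.88 to 1.99), with a UMI in 520 and 241 cells, and the 78 and 37 cells that carried it held 77.7% and 84.3% of its UMIs. In the LPS library 2 cells held 38.2% of its UMIs, and without the 5% of cells with the highest doublet scores the ratio of CpG ODN over LPS was 0.738 in place of 0.517. Without the cells that carried Krt4 it was 0.401, past 2-fold. The cells that carried Krt1 had 11889 and 11493 CPM of Krt10 on the axis, and 83.3% and 89.2% of all of them carried Krt10. By cluster, however, Krt1 was highest in cluster 18 among the keratinocyte-like ones, at 1502 and 1459 CPM. Krt10 was at 1535 and 1757 CPM there. Krt15 was at 721 CPM (714 to 727) after CpG ODN and 880 (870 to 890) after LPS, 1.22-fold higher after LPS (1.20 to 1.24), and lower after CpG ODN in all 6 bins, though in bin 5 the interval of the ratio (0.935 to 1.04) includes 1.

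The others were higher after CpG ODN or level. Krt14 was at 18802 CPM (18768 to 18836) after CpG ODN and 14873 (14832 to 14914) after LPS, a ratio of 1.26 (1.26 to 1.27), and above 1 in all 6 bins. In the same order Krt76 stood at 16583 (16551 to 16615) and 14414 (14373 to 14455), a ratio of 1.15 (1.15 to 1.15), and Krt24 at 6115 (6096 to 6134) and 5176 (5151 to 5200), a ratio of 1.18 (1.17 to 1.19). Without cells above 2 times the median UMIs of their library (605 and 146 cells), both turned, to 0.887 for Krt76 and 0.977 for Krt24. Krt5 was at 2568 (2555 to 2580) and 2415 (2398 to 2432), a ratio of 1.06 (1.05 to 1.07), and 0.947 without the cells that carried Krt4. Krt10 was at 2822 (2809 to 2835) and 2808 (2790 to 2826), a ratio of 1.00 (0.997 to 1.01), but 0.683 without the deeper cells. The sizes of all these differences are under 1.5-fold, and the spread between mice is not known.

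**Figure D4:**
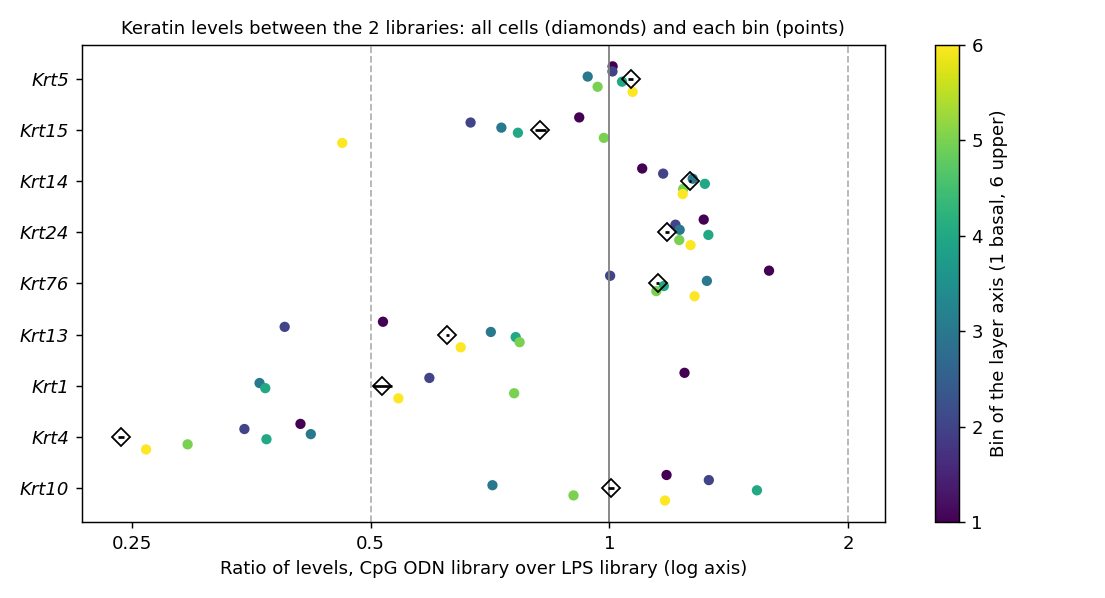
Ratio of each keratin's level in the CpG ODN library to that in the LPS library (log axis), over all keratinocyte-like cells (diamonds, with bars for the 95% counting interval) and in each of the 6 bins (points, dark for basal to light for upper), with dashed lines at 2-fold. Krt4 lies at 0.242 and below 0.5 in all bins, and Krt13 below 1 in all bins, while Krt14, Krt24 and Krt76 lie above 1.

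Type I transcripts outnumbered type II transcripts, although the proteins pair 1 to 1. Over the members the ratio was 1.84 after CpG ODN and 1.73 after LPS, and it was lower in the upper bins: 2.82 and 2.76 in bin 1, 2.54 and 2.30 in bin 4 and 1.39 and 1.43 in bin 6. The excess in the basal bins was Krt14 over Krt5. With all 28 type I and 25 type II keratin genes of the files, the ratio was 1.45 and 1.42, from 2.34 and 2.39 in bin 1 to 1.26 and 1.28 in bin 6. Single cells showed it too, with type I above type II in 97.1% and 97.7% of the cells over all keratin genes.

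**Figure D5:**
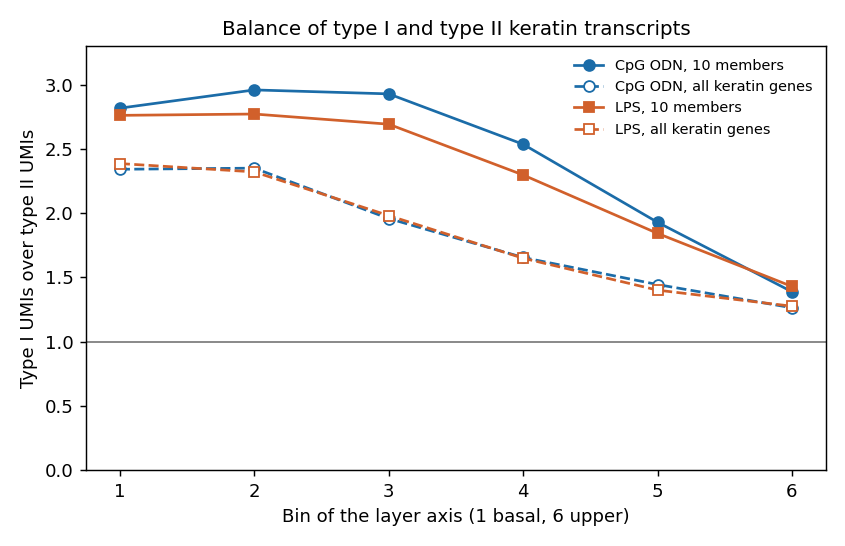
UMIs of type I keratins divided by UMIs of type II keratins in each bin of the layer axis, for the 10 members (filled symbols, solid lines) and for all keratin genes (open symbols, dashed lines), by library. The line at 1 marks equal numbers, and every point lies above it, from 2.96 at most in bin 2 to 1.26 at least in bin 6.

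Other keratins of at least 100 CPM were Krt6a, Krt16, Krt6b, Krt17 and Krt80. Krt6a and Krt6b (type II) and their partners Krt16 and Krt17 (type I) are known from activated and palatal epithelium. Krt16 was at 7917 and 6723 CPM and position 83.7 and 83.3, Krt6b at 3043 and 2859 CPM and position 85.8 and 86.0, the latter beside Krt10 and the former between Krt1 and Krt4 on the axis. Krt6a was at 9203 and 7751 CPM and Krt17 at 2029 and 1541, nearer the middle at positions 67.9 and 68.6 and 66.2 and 61.0. Of these 5, none was past 2-fold between the ligands. A list of 18 genes linked to keratin filaments by function or by name also holds Vim and Nes, which form intermediate filaments of other cell types, and Krtcap2, a subunit of an oligosaccharyltransferase. Of the 18, 16 had at least 100 UMIs, 1 (Vim, 193 and 31 UMIs, 3.298-fold higher after CpG ODN, 2.25 to 4.99) was past 2-fold, and the median log2 ratio was 0.11. Of the hemidesmosome linkers, Plec (positions 33.3 and 34.7) lay between Krt5 and Krt15 and Dst (27.9 and 27.9) below Krt5, although Dst is in the basal list that made the axis. Filaggrin (Flg, 90.5 and 90.2), which aggregates keratins in cornifying cells, and the related hornerin (Hrnr, 91.1 and 91.2) lay above all members.

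The non-keratin genes most like each member were ranked among 2826 genes by Pearson correlation over thinned keratinocyte-like cells. For Krt5 they were S100a6, a calcium-binding protein (0.79 after CpG ODN and 0.80 after LPS), and Col17a1, the hemidesmosomal collagen (0.65 and 0.68). The same genes came first for Krt15, at 0.37 and 0.35 for S100a6 and 0.34 and 0.40 for Col17a1, and for Krt14 they were S100a6 (0.38 and 0.49) and Tmsb4x (0.34 and 0.41). Krt76 and Krt24 shared Selenbp1, at 0.69 and 0.67 for Krt76 and 0.69 and 0.68 for Krt24, and Fam25c (0.59 and 0.57, and 0.66 and 0.64). For Krt10 they were Spink5, a protease inhibitor of cornifying layers (0.65 and 0.61), and Aox4 (0.61 and 0.59), and for Krt13 Fabp5 (0.63 and 0.63) and the metallothionein Mt4 (0.62 and 0.62). Col17a1 and Spink5 are in the lists that made the axis. Krt4, Krt1 and Krt2 had a UMI in fewer than 10% of the thinned cells of at least 1 library and were not ranked.

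Outside the keratinocyte-like cells, Krt14 varied widely between classes and libraries. It was low in mural-like cells (109 CPM after CpG ODN and 47.4 after LPS) and endothelial-like cells (386 and 55.3). Fibroblast-like cells had 2598 and 765 CPM of Krt14 and 2429 and 261 of Krt76, and Schwann-like cells 2290 and 105 of Krt14. Myeloid-like cells had 17786 CPM of Krt14 after CpG ODN (64 cells) and 46.2 after LPS (13 cells), and red cell-like cells 19013 and 22025 CPM. Clusters of the last 2 names detected 12 or more of the 13 keratinocyte markers, and whether these are droplets with 2 cells was not tested. The clusters named gland or simple epithelial were unlike each other. Krt14 was at 27715 and 28782 CPM in cluster 24 (17 and 16 cells), at 8510 and 3332 in cluster 14 and at 115 and 1196 in cluster 25.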

How the data were processed

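Single-cell libraries were made by the authors with the Chromium 3′ kit of 10x Genomics. Per the file headers, the deposited values are UMI counts per gene and cell from Cell Ranger 4.0.0, and per the labels Seurat was also used. The genome build and the treatment of reads shared by near-identical keratins were not given in the sources used here. The keratins and gene lists were chosen with earlier results of these data known. Barcodes with fewer than 800 genes (1331 and 739) were left out. Cells were clustered with scanpy 1.11.5 and leidenalg 0.10.2 (2000 variable genes, 30 components, 15 neighbours, resolution 1) without the 53 keratin genes, and a cluster was named from at least 3 markers, unless its 10 leading genes held more markers of another class than of its own, or it was shallow with none of its own among them. Levels are sums of counts over the cells of a library. A gene was called past 2-fold when it had 100 or more UMIs in all. With 1 library a ligand no test between ligands was possible. Intervals are exact Poisson, conditional binomial or Clopper-Pearson (scipy 1.17.1). The calculation was tested on simulated data. The text names the 10 members, the 2 most alike non-keratin genes of each, other keratins of 100 CPM or more and a list of 18 genes linked to keratin filaments. Class markers and genes leading clusters are named beside them.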

Additional observations from a re-analysis of the deposited data

How the results depend on the processing

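No paired analysis was possible because there was a single library per ligand, which also left no replicate to omit. The ratio of Krt13 (CpG ODN over LPS, 0.625) was 0.632 with 200 genes as the minimum, 0.620 below 10% mitochondrial UMIs, 0.558 without cells above 2 times the median UMIs, 0.627 over all cells, 0.611 with free RNA subtracted and 0.633 as the mean of the bins. The ratio of Krt4 (0.242) was 0.245 with 200 genes, 0.208 without the deeper cells and 0.350 as the mean of the bins. Without the deeper cells 2 members were past 2-fold, Krt4 and Krt1. Among alternatives chosen after seeing the data, Krt13 was at 0.960 and Krt1 at 0.401 (past 2-fold) without cells that carry Krt4, and without the 5% highest doublet scores Krt13 was at 0.637, Krt4 at 0.252 and Krt1 at 0.738 (0.517 with all cells). Each threshold of carrying was set on both genes of a pair, so the Krt4 or Krt10 cells counted differ between thresholds. With a single UMI (1 or more) as carrying, Krt4 cells with Krt13 made up 90% (CpG ODN), those with Krt14 98.5% and 99.4%, those with Krt76 89.7% and 93.2%, and Krt10 cells with Krt76 96.7% and 96.8%. At 3 per 10000, Krt4 cells with Krt14 made up 61.7% and 46.1%, and at 30 per 10000 16.5% and 6.10%. Above the 99th percentile of B-like and T-like cells they made up 8.38% and 27.5%. That percentile was 140 and 22.8 UMIs of Krt14 per 10000, so the libraries cannot be compared there. Krt4 cells with Krt76 made up 28.9% (CpG ODN) at 30 per 10000, and 29.9% and 10.3% without the deeper cells. Type I over type II was 1.45 and 1.42 with all keratin genes. In every alternative of the axis that was run, 6 members centred in its upper part, and 34 to 36 of 36 pairs of members kept their order. The cause of these shifts was not tested.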
